A study of Rattus norvegicus with 12 samples.

Results

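The AP-1 and immediate early genes examined here were Fos, Fosb, Fosl1, Fosl2, Jun, Junb, Jund, Egr1 and Ier2, that is 9 genes of the 22442 gene records measured. A record was taken where its gene name equalled a member symbol, and the record with the highest mean was taken where several shared a name. The set was chosen on the lower level of Fos under taurochenodeoxycholic acid (TCDCA), a taurine-conjugated bile acid, so the Fos values against untreated cells are given as a description without a test. The question was whether the other early genes followed Fos, and at which doses. RNA was sequenced from cultured fibroblast-like synoviocytes (FLS), the lining fibroblasts of the joint, taken from male Sprague Dawley rats with adjuvant arthritis (AA), a joint inflammation induced by complete Freund's adjuvant. The cells were used at the third passage. Untreated cells in DMEM made up the FCA group. The treated groups received TCDCA for 12 h, at 10 µM (AT10), 1 µM (AT1) or 0.1 µM (AT01). Each of the 4 groups had 3 libraries, and all 12 libraries came from arthritic animals, so there was no healthy control among them. The study describes the replicate numbers 1 to 3 as sets of repeats, without saying whether a set shared rats, cultures or a day. No library is tied to a named rat or culture, and p-values therefore measure only the spread between libraries, which may be technical. The study says that its q-PCR and protein work used FLS of the batch that was sequenced, without saying what a batch held. No library is assigned a sequencing or culture batch, so a batch that followed the groups cannot be told apart from the dose.

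Immediate early genes are transcribed within minutes of a growth factor, cytokine or stress signal, from transcription factors already present in the cell, and their transcripts are short-lived. The FOS and JUN proteins pair through leucine zippers to form the AP-1 factor, which binds DNA at AP-1 sites. In synovial fibroblasts AP-1 is known as a driver of collagenase and cytokine genes. EGR1 is a zinc finger factor induced through serum response factor, which binds the CArG box, and IER2 is a small nuclear protein induced with it. CREB and ATF proteins bind the cyclic AMP response element (CRE), which is found near the start of many early genes.

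The promoters of Egr1 and Ier2 are shown because these members did not overlap between AT10 and either lower dose, and that of Fosl2 because its level hardly moved. Jun and Fos have no entry in the promoter table used here. They are the 250 bases before the start of the gene in RefSeq, build GRCr8, at chr18:26736828-26737077 (+ strand), chr19:40399123-40399372 (+ strand) and chr6:30039270-30039519 (- strand), written 5′ to 3′ on the strand of the gene. Capitals mark the CRE core TGACG on either strand, a whole CRE (TGACGTCA, which contains an overlapping core on each strand), an AP-1 site (TGANTCA) or a CArG box.
Egr1: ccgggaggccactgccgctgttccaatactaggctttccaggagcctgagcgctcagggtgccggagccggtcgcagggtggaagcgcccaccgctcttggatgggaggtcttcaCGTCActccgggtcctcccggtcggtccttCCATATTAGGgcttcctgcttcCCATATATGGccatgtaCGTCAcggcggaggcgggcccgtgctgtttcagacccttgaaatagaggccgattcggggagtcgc
Ier2: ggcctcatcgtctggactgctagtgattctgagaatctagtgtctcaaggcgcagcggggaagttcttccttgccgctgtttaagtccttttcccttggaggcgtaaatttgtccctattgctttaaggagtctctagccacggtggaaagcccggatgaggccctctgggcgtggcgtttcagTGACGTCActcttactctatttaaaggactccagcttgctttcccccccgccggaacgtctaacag
Fosl2: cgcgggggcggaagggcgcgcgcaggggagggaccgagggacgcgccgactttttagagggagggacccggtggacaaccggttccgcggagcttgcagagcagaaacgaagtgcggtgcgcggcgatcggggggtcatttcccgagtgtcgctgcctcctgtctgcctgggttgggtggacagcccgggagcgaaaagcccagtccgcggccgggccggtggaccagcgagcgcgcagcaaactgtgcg
The promoter table matched 7 of the 9 members. Egr1 was the only one of these 7 with a CArG box in this window, and it had 2, from 105 to 96 and from 83 to 74 bases before the start. A CArG box occurred in 1.5% of all 33469 promoters of that length. The CRE core was present in 5 of the 7 members, namely Fosl1, Junb, Jund, Egr1 and Ier2, against 18.2% of all promoters. The whole CRE stood in Ier2, from 66 to 59 bases before the start, and in Jund, against 1.59% of all promoters. An AP-1 site occurred in none of the 7 windows and in 6.34% of all promoters. These matches describe letters in a window and were not tested as binding sites.

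Levels are given as FPKM, a fragment count scaled for transcript length and for the mapped reads of the library, as deposited by the authors. The read counts behind them are not used here, so the depth of a single value is unknown and no counting interval is given. The summed FPKM ranged from 284210 to 309696 per library, and the median correlation of a library with the others ranged from 0.935 to 0.947 on the log2 scale. The FLS label was checked against markers, and all 12 synovial fibroblast markers with a record had a mean above 1 FPKM, from Vcam1 at 4.33 to Vim at 2658 FPKM on average. Of the macrophage markers, 4 of 7 stayed under 1 FPKM in all 12 libraries, with Adgre1, Aif1 and Mrc1 at 0 to 0.03. Csf1r was the other, at 0.08 to 0.26 FPKM. Cd68 was present in every library at 1.66 to 2.91 FPKM, and Lyz2 ranged from 0.02 to 1 FPKM. The list summed to 5.75 to 22.07 FPKM, mostly Cd14. Cd14, which fibroblasts can also express, took either a low value of 3.60 to 4.60 or a high value of 15.70 to 18.82 FPKM, and FCA, AT1 and AT01 had 1 low library each. The endothelial markers summed to at most 0.21 FPKM and the lymphocyte markers to at most 0.1 FPKM. Fewer cells of a type and less RNA per cell cannot be told apart in such bulk libraries.

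Fos, the AP-1 subunit that chose this set, lay lower at all doses. Its FPKM values were 8.74, 14.97 and 8.45 in FCA, 8.63, 6.65 and 6.15 in AT10, 4.54, 5.91 and 5.32 in AT1, and 5.41, 6.28 and 6.27 in AT01. Every AT1 and AT01 library was below every FCA library, while AT10 replicate 1 lay inside the FCA range. Group means were 10.7 ± 3.68 FPKM for FCA, 7.14 ± 1.31 for AT10, 5.26 ± 0.687 for AT1 and 5.99 ± 0.499 for AT01 (SD, n = 3). On the log2(FPKM + 1) scale, on which all fold changes below are given and which understates the change of low genes, the AT10 mean stood -0.49 from FCA, the AT1 mean -0.87 and the AT01 mean -0.71. Much of its size came from FCA replicate 2, and without that library the differences were -0.25, -0.62 and -0.46. The Fos mean was lowest at 1 µM and not at the highest dose, though AT1 and AT01 overlapped. Every AT10 library was above every AT1 library. The choice of the set used these same treated libraries, so Fos is not tested between doses either.

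**Figure D1:**
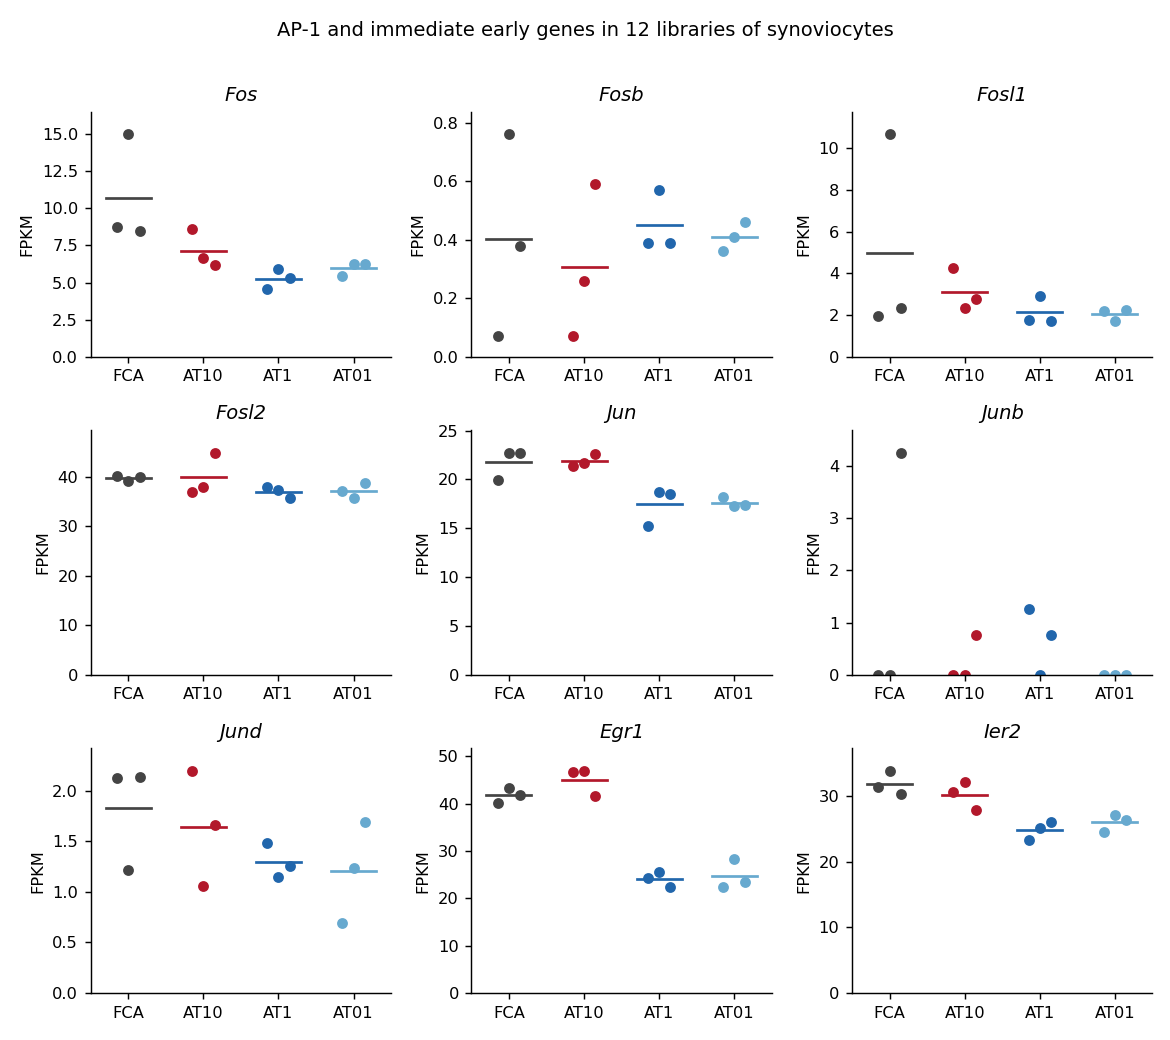
FPKM (y axis, linear from 0, one scale per gene) of the 9 members in each library (points) of FCA and of TCDCA at 10 µM (AT10), 1 µM (AT1) and 0.1 µM (AT01), with the group mean as a line except for Junb, which is listed at 0 in 8 libraries. Egr1 sits between 40.10 and 46.98 in FCA and AT10 and between 22.32 and 28.21 in AT1 and AT01, and Fos and Fosl1 each have 1 high FCA library.

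On the log2(FPKM + 1) scale, Egr1 gave the largest difference of any tested member other than Fos in AT1 and AT01. It lay lower at these doses but not at 10 µM. Its FPKM values were 40.10, 43.20 and 41.89 in FCA, 46.70, 46.98 and 41.54 in AT10, 24.33, 25.49 and 22.42 in AT1, and 22.32, 28.21 and 23.36 in AT01. No AT1 or AT01 library reached the lowest FCA library, whereas AT10 overlapped FCA and its mean was slightly higher. AT1 stood at 57.7% of the FCA mean and AT01 at 59.02%, against 108% for AT10. By this measure Fosl1 was lower still, at 42.91% in AT1 and 40.98% in AT01, with 1 high FCA library. At 1 µM the log2 fold change of Egr1 was -0.77 (SE 0.07), with a limma adjusted p of 0.0488 over all 11611 records tested, just under the threshold of 0.05. In AT01 it was -0.74 (SE 0.10), with an adjusted p of 0.178, and in AT10 it was 0.11 (95% interval -0.07 to 0.28), with an adjusted p of 0.576. The AT1 call was narrow, since leaving out any of the 6 libraries gave an adjusted p between 0.0502 and 0.14, although the difference kept a size of -0.81 to -0.72. With the replicate number as a block the adjusted p was 0.351. The difference between the doses was tested directly: AT10 exceeded AT1 by 0.88 (SE 0.08, adjusted p = 0.0261), and AT10 exceeded AT01 by 0.85 (SE 0.11, adjusted p = 0.304). The call between AT10 and AT1 was narrow too, with an adjusted p of 0.0353 to 0.117 when a library was left out, under 0.05 in 1 of 6 cases, and of 0.175 with the replicate block. AT1 and AT01 differed by -0.03, with a 95% interval from -0.30 to 0.25. The exact permutation p of each of these comparisons without overlap was 0.1, the smallest that 3 libraries against 3 allow.

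Ier2 also lay lower in AT1 and AT01 than in FCA and AT10, by less than Egr1. Its FPKM values were 31.35, 33.87 and 30.33 in FCA, 30.59, 32.16 and 27.81 in AT10, 23.31, 25.10 and 26.05 in AT1, and 24.54, 27.10 and 26.31 in AT01. The AT1 and AT01 libraries were all below the FCA libraries and below the AT10 libraries, and AT10 overlapped FCA. Against FCA the log2 fold change was -0.35 (SE 0.07) for AT1, -0.28 (SE 0.08) for AT01 and -0.08 (SE 0.08) for AT10. None of the 3 passed the adjusted test, with adjusted p-values of 0.362, 0.652 and 0.706 by limma.

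Jun, the main partner of FOS in AP-1, was likewise lower in AT1 and AT01. Its FPKM values were 19.92, 22.75 and 22.74 in FCA, 21.33, 21.72 and 22.64 in AT10, 15.27, 18.76 and 18.55 in AT1, and 18.15, 17.32 and 17.33 in AT01. All 6 libraries of the lower doses lay under all 6 libraries of FCA and AT10. AT1 stood at 80.39% and AT01 at 80.72% of the FCA mean, with log2 fold changes of -0.30 (SE 0.10, adjusted p = 0.428 by limma) and -0.29 (SE 0.08, adjusted p = 0.655). In AT10 the log2 fold change was 0.01, with a 95% interval from -0.18 to 0.19. Against AT10, Jun was lower by 0.31 in AT1 (adjusted p = 0.739) and by 0.30 in AT01 (adjusted p = 0.798).

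Among the other members of the FOS family, Fosl2, which encodes FRA2, was the most abundant and the flattest. Its FPKM values were 40.21, 39.08 and 40.02 in FCA, 36.88, 37.84 and 44.86 in AT10, 37.92, 37.29 and 35.67 in AT1, and 37.07, 35.69 and 38.63 in AT01. The AT1 and AT01 libraries lay just under the FCA libraries, by -0.10 on the log2 scale in each (adjusted p = 0.478 and 0.797 by limma), and AT10 held both lower and higher libraries. A second Fosl2 record ranged from 19.62 to 24.51 FPKM, with log2 fold changes of -0.09, -0.08 and -0.09 against FCA at the 3 doses from high to low. Fosl1, which encodes FRA1, was dominated by 1 library. It measured 1.97, 10.66 and 2.33 FPKM in FCA, 4.24, 2.34 and 2.75 in AT10, 1.77, 2.93 and 1.72 in AT1, and 2.21, 1.70 and 2.22 in AT01. FCA replicate 2, the library with the highest Fos, also held this high Fosl1 value. The log2 fold changes of Fosl1 against FCA were -0.27, -0.65 and -0.68 with all libraries and 0.36, -0.02 and -0.05 without FCA replicate 2, so its direction in AT10 rested on that library. Fosb stayed under 1 FPKM in every library, between 0.07 and 0.76, and was not tested.

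The remaining JUN family members were close to the limit of the data. Jund, usually an abundant partner in resting cells, had low values here. Its record was of an assembled transcript, as was that of every other tested member. Jund measured 2.13, 1.22 and 2.14 FPKM in FCA, 2.20, 1.06 and 1.66 in AT10, 1.48, 1.15 and 1.26 in AT1, and 0.69, 1.24 and 1.69 in AT01. All groups overlapped, and no comparison of Jund had an adjusted p under 0.5 by limma. Junb was listed at 0 in 8 of the 12 libraries, with 4.26 FPKM in FCA replicate 3, 0.76 in AT10 replicate 3, 1.26 in AT1 replicate 1 and 0.76 in AT1 replicate 3. Between 94 and 137 tested records were listed at 0 in each library, and a listed 0 can be a failed estimate, so no fold change of Junb is given.

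**Figure D2:**
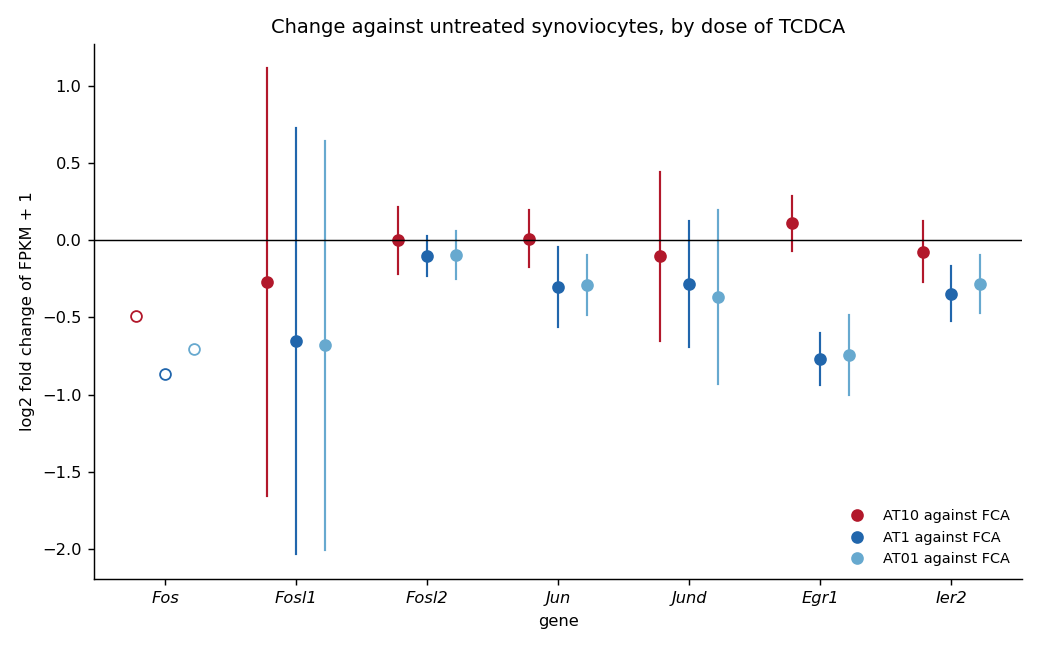
Log2 fold change of FPKM + 1 against FCA (y axis, linear) for the 7 tested members (x axis) at 10 µM, 1 µM and 0.1 µM TCDCA, with 95% limma intervals as bars; the open circles of Fos carry no interval because Fos chose the set. At 10 µM Egr1 is at 0.11 and Jun at 0.01, while at 1 µM they are at -0.77 and -0.30.

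Counted over the 6 other tested members, the 10 µM dose did not show the pattern of the lower doses. In AT10, 4 of 6 had a log2 fold change below 0, with a median of -0.04, and none was lower at an unadjusted p under 0.05 or without overlap. Over all records tested, 51.7% were below 0 in AT10, 4.34% were lower at that p and 9.18% lower without overlap, and 0.172% had an adjusted p under 0.05. In AT1, 6 of 6 were below 0, with a median of -0.33, beside 46.7% below 0 and a median of 0.02 over all records. Lower at an unadjusted p under 0.05 were 3 of 6, namely Egr1, Ier2 and Jun, against 5.44% of all records, and 4 of 6 were lower without overlap, with Fosl2 added, against 10.0% of all records. Egr1 alone passed the adjusted threshold in AT1, as did 0.0947% of all records. In AT01, 6 of 6 were below 0, against 49.6% of all records, with a median of -0.33. The 3 genes at an unadjusted p under 0.05 and the 4 without overlap were those named for AT1, against 4.03% and 8.06% of all records. None passed the adjusted threshold in AT01, which 0.0947% of all records did. The comparisons with FCA share the same 3 FCA libraries, so the likeness of AT1 and AT01 is not independent evidence.

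The 9 TCDCA libraries pooled against FCA gave smaller differences. All 6 other tested members had a log2 fold change below 0, against 49.3% of all records, with a median of -0.24. Only Ier2 was lower at an unadjusted p under 0.05 (-0.24, SE 0.09, adjusted p = 0.356 by limma), against 6.15% of all records. None was lower without overlap, against 1.90% of all records, and none passed the adjusted threshold, which 0.0258% of all records did. Egr1 pooled over the doses differed by -0.47 with an SE of 0.25, AT10 and the lower doses lying apart.

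Comparing the doses with each other left the FCA libraries out. The comparisons of AT10 with AT1 and with AT01 share the same 3 AT10 libraries, so their likeness is not independent evidence either. All 6 other tested members had higher log2 means in AT10 than in AT1, and 3 of them (Jun, Egr1 and Ier2) were higher at an unadjusted p under 0.05, against 2.72% of all records. The same 3 were higher without overlap, against 5.70% of all records. Egr1 alone passed the adjusted threshold there, as did 0.258% of all records. All 6 were also higher in AT10 than in AT01, where Jun and Egr1 were higher at an unadjusted p under 0.05, against 2.14% of all records. Fosl1, Jun, Egr1 and Ier2, 4 of the 6, were higher there without overlap, against 4.64% of all records, and none passed the adjusted threshold, which 0.0689% did. Between AT1 and AT01 none of the 6 passed either threshold, and 0.129% of all records passed the adjusted one.

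**Figure D3:**
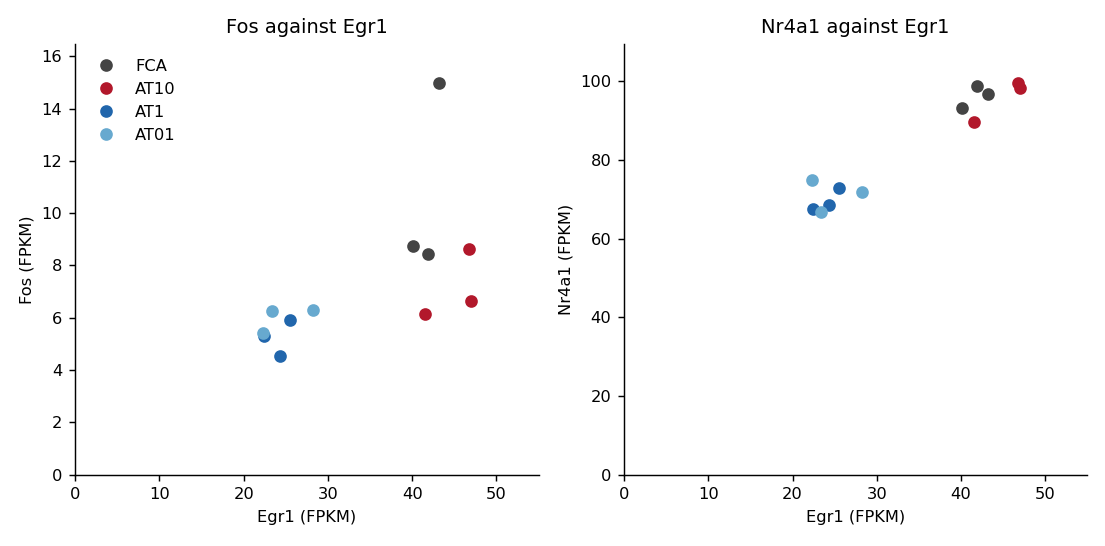
Egr1 (x axis, FPKM) against Fos (left, FPKM) and Nr4a1 (right, FPKM) in the 12 libraries, with colours for the groups. Egr1 splits the libraries into FCA with AT10 at 40 FPKM and above and AT1 with AT01 under 30 FPKM. Nr4a1 splits the same way at 89.66 and above against 74.90 and below. Fos in AT10 overlaps both FCA and AT01 and lies above every AT1 library.

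How the members varied over the 12 libraries was described by Pearson correlations on the log2 scale, which share library and group differences and are given without a p. The correlation with Fos was 0.86 for Ier2 (Spearman 0.92), 0.83 for Fosl1 (Spearman 0.48), 0.69 for Jun, 0.68 for Egr1, 0.31 for Jund and 0.23 for Fosl2. Taken on deviations from the group means, it was 0.67 for Ier2, 0.91 for Fosl1, 0.31 for Jun, 0.41 for Egr1, -0.20 for Jund and -0.43 for Fosl2, so part of the likeness to Jun and Egr1 was the difference between groups. FCA replicate 2 held the highest value of both Fos and Fosl1. Without FCA replicates 1 and 2, the 2 libraries farthest from the Fos median, the correlation of Fosl1 over the libraries went from 0.83 to 0.64. That of Jund went from 0.31 to 0.63, and the others were 0.84 for Ier2, 0.76 for Egr1, 0.74 for Jun and 0.15 for Fosl2. Records most like Fos were Irx3 (0.93), Mapre3 (0.92), Sf3a2 (0.91), Ccdc102a (0.91) and Fhl3 (0.91), and they were chosen from all tested records, so their correlations are a description. The records most like Egr1 were Nr4a1 (0.97), Pabpc4 (0.92), Btg2 (0.92), Csrnp1 (0.91) and Ier2 (0.89). Because the Egr1 values form a high and a low set of libraries, these reflect the separation between the sets. Within groups they were 0.45 for Nr4a1, 0.41 for Pabpc4, 0.46 for Btg2, 0.01 for Csrnp1 and 0.51 for Ier2.

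Other early genes of the same class, from a list of 38, included members that lay lower in AT1 and AT01 and others that did not. A record was found for 37 of them and 31 were tested. In AT10, 17 of 31 had a log2 fold change below 0, against 51.7% of all records, with a median of -0.01. Csrnp1 alone was lower without overlap, against 9.18% of all records. None was lower at an unadjusted p under 0.05, against 4.34% of all records. Tiparp (0.46, adjusted p = 0.249) and Ptgs2 (1.16, adjusted p = 0.402), which encodes the prostaglandin synthase COX-2, were higher at that p, against 7.54% of all records. In AT1, 23 of 31 were below 0, against 46.7% of all records, with a median of -0.22. Lower without overlap were 13, against 10.0% of all records, and 9 were lower at an unadjusted p under 0.05, against 5.44%. In AT01, 25 of 31 were below 0, against 49.6% of all records, with a median of -0.20. At that p 10 were lower, against 4.03% of all records, and 10 were lower without overlap, against 8.06%. None of the 31 passed the adjusted threshold against FCA at any dose by limma.

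Nr4a1, an orphan nuclear receptor gene of the early class, showed the pattern with little spread. Its FPKM values were 93.37, 96.93 and 98.87 in FCA, 99.57, 98.44 and 89.66 in AT10, 68.66, 72.88 and 67.57 in AT1, and 74.90, 71.93 and 66.91 in AT01. The lower doses did not overlap FCA or AT10, and the log2 fold change against FCA was -0.46 (SE 0.05, adjusted p = 0.113 by limma) in AT1 and -0.43 (SE 0.07, adjusted p = 0.285) in AT01. Btg2, an antiproliferative gene, measured 51.93, 53.15 and 56.58 FPKM in FCA, 58.11, 54.75 and 54.84 in AT10, 35.14, 33.39 and 29.40 in AT1, and 40.79, 43.16 and 28.01 in AT01. AT10 exceeded AT1 by 0.76 (SE 0.08, adjusted p = 0.0475), the only tested gene of the list past the threshold in that comparison. Leaving out a library gave it an adjusted p of 0.0492 to 0.177, and the replicate block 0.339. Csrnp1, a nuclear protein gene induced by AXIN1, measured 23.41 to 23.89 FPKM in FCA, 21.86 to 22.91 in AT10, 16.08 to 17.39 in AT1 and 15.96 to 18.88 in AT01.

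Zfp36, which encodes the mRNA-destabilising protein tristetraprolin, and Sik1, a salt-inducible kinase gene, were the others named by the smallest p-values over the 9 TCDCA libraries. Their log2 fold changes against FCA were -0.46 and -0.27 in AT1 and -0.37 and -0.41 in AT01, with adjusted p-values of 0.306, 0.42, 0.652 and 0.72 by limma. Egr2 and Myc, chosen after their values were seen, also lay lower in every AT1 and AT01 library than in any FCA library. Egr2, a relative of Egr1, measured 2.03 to 2.59 FPKM in FCA, 2.37 to 2.69 in AT10, 0.37 to 1.92 in AT1 and 0.85 to 1.60 in AT01. Myc, a growth regulator, measured 22.61 to 26.19 FPKM in FCA, 23.06 to 26.45 in AT10, 16.84 to 19.86 in AT1 and 19.76 to 20.63 in AT01. Not every early gene did so: Ccn1, a matricellular protein gene, measured 375.36 to 421.18 FPKM in AT1, within the FCA range of 255.17 to 464.64, and 192.69 to 218.35 in AT01.

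**Figure D4:**
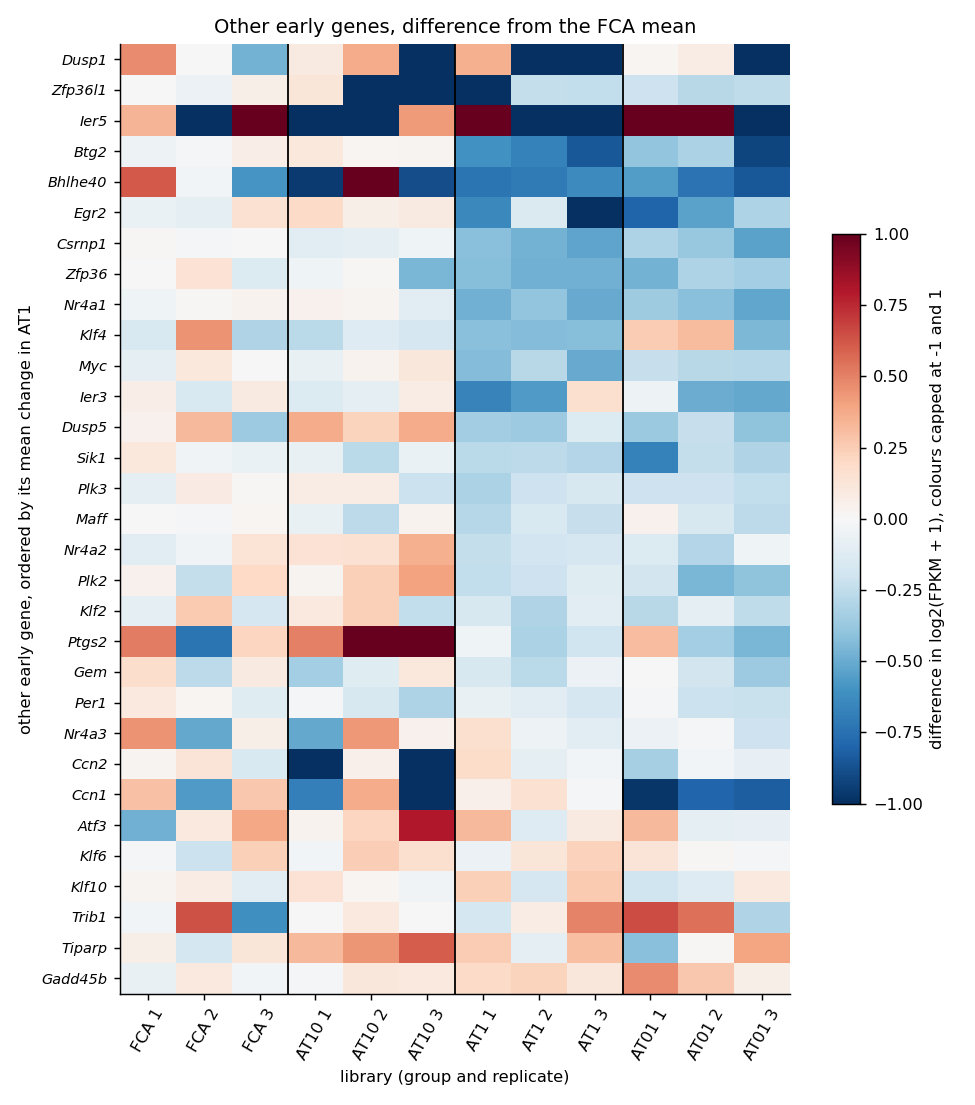
Difference of log2(FPKM + 1) from the FCA mean (colour, red higher and blue lower, capped at -1 and 1) for the 31 tested early genes outside the members (y axis, ordered by the AT1 mean) in the 12 libraries (x axis). Btg2, Csrnp1, Nr4a1 and Myc are blue in all AT1 and AT01 libraries and near white in AT10, while Ier5, Bhlhe40 and Ptgs2 vary within groups.

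Lists of genes around AP-1 had median log2 fold changes between -0.15 and 0.09 over the doses. Of the 14 bZIP partners and repressors listed, which pair with or oppose the FOS and JUN proteins, 9 were tested, and they had a median log2 fold change of 0.07 for AT10, 0.09 for AT1 and 0.04 for AT01. The smallest p-values in the 9 TCDCA libraries against FCA belonged to Atf2 (0.26, adjusted p = 0.414 by limma), Creb1 (0.34, 0.492) and Mafk (0.48, 0.684). Atf2 was at 0.15 without FCA replicate 2, and Mafk at 0.23 without AT1 replicate 3. Of the 19 kinases and factors upstream of the early genes, 17 were tested, with medians of -0.05, -0.08 and -0.15. Over the 9 TCDCA libraries, Mrtfa, a coactivator of serum response factor, differed by -0.26 (adjusted p = 0.295), Mapk3, which encodes ERK1, by -0.29 (0.311) and Elk1, an ERK-regulated partner of serum response factor, by -0.41 (0.348). Without FCA replicate 2, Mapk3 differed by -0.19. With all libraries 9 of 17 were below 0 and 8 above, and 4 were lower at an unadjusted p under 0.05, Elk3 being the other, against 6.15% of all records.

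The 21 AP-1 targets, all of them tested, had median log2 fold changes of 0.09 for AT10, -0.0049 for AT1 and -0.02 for AT01, so the list as a whole lay near 0 at the doses where Egr1 and Jun were lower. Il6, an inflammatory cytokine gene, was higher over the 9 TCDCA libraries by 0.55 at an unadjusted p of 0.015 (adjusted p = 0.339 by limma). It measured 81.56, 107.81 and 128.11 FPKM in FCA, 126.07, 146.93 and 204.56 in AT10, 193.76, 109.33 and 173.85 in AT1, and 147.85, 125.30 and 178.08 in AT01. Il11 differed by -0.59 (adjusted p = 0.441) and Tgfb1 by -0.35 (adjusted p = 0.505), and without FCA replicate 1 by -0.32 and -0.13. Heat shock genes, whose levels follow cell stress, were mixed in AT1: of 7 tested, 4 were above 0 and 3 below, with a median of 0.10. The 3 below 0 (Bag3, Hspb1 and Hspe1) were lower at an unadjusted p under 0.05, against 5.44% of all records, with Bag3 at 41.95 to 43.22 FPKM against 57.24 to 63.58 in FCA. Their part in the early gene values was not tested.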

How the data were processed

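RNA-seq of poly(A) RNA was available for 12 libraries in 4 groups of 3. The authors aligned reads with HISAT2 2.0.4 and estimated expression with StringTie 1.2.4 and Ballgown 2.6.0, and they deposited FPKM with 2 decimals for 22442 records. The submitters' processing notes also name cutadapt and edgeR, and the genome build is not given in the sources used here. Assembled transcripts and annotated genes share the table, and overlapping records can split reads. Sample groups came from the labels.

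Values were transformed as log2(FPKM + 1), and records averaging 1 FPKM or more (11611) entered limma 3.58.1 (R 4.3.3, lmFit, eBayes with trend), each comparison with its own libraries, with Benjamini-Hochberg adjustment over all 11611. Two-sided exact permutation tests could not go below 0.1 for 3 against 3. The members and lists were chosen with earlier results of these data known, so their counts are not independent evidence. Outside the members, genes were named by the 3 smallest p-values per list over the 9 TCDCA libraries and by the 5 highest correlations with Fos and with Egr1; others are said to be chosen after their values were seen or are named because a count was 5 or fewer. The fit was tested on simulated data. Alternatives changed the pseudocount (0.1), the filter (none, or 10 FPKM), the libraries fitted (all 12, or without each in turn), the test (a Ballgown-style F test), the scaling (median of ratios), the records (sums by gene name) and the block (replicate number). Promoters came from RefSeq (GRCr8) and were searched in Python.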

Additional observations from a re-analysis of the deposited data

Results flagged for a closer look

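Egr1 differed between doses by the test of the difference itself: AT10 exceeded AT1 by 0.8771 on the log2 scale (limma adjusted p = 0.0261), with all 3 AT10 libraries above all 3 AT1 libraries. Over 14 alternatives the difference ranged from 0.83 to 0.93 and the adjusted p from 0.0134 to 0.378, and it was under 0.05 in 6 of them.

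Btg2 differed in the same comparison by 0.7613 (limma adjusted p = 0.0475), also without overlap, with an adjusted p from 0.031 to 0.416 over 14 alternatives and under 0.05 in 5.

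Ccn1 differed between AT1 and AT01 by 0.9257 (limma adjusted p = 0.039), with 391.26, 421.18 and 375.36 FPKM in AT1 against 192.69, 218.35 and 213.01 in AT01. In FCA and AT10 the libraries spread over both levels, with 464.64, 255.17 and 457.74 FPKM in FCA and 235.20, 490.23 and 181.88 in AT10. The adjusted p was under 0.05 in 4 of 14 alternatives, and it was 1 in the fit over all 12 libraries, in which the spread of FCA and AT10 enters the error.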

How the results depend on the processing

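Of 1437 values of single genes under the alternatives, 1375 counted as unchanged, 37 lost the adjusted call, 2 gained one and 23 changed sign. Unchanged meant the same direction and side of the threshold. For the untested Fos it meant the same direction and a shift below its spread within groups. All 37 losses fell on results called in the main fit. Egr1 in AT1 against FCA lost its call in 10 of 14 alternatives, and Ccn1 in AT1 against AT01 in 10 of 14. In AT10 against AT1, Egr1 lost it in 8 and Btg2 in 9 of 14. The other results were not called in the main fit, so keeping their side of the threshold says little. The adjusted call of Egr1 in AT1 against FCA, the 1 member called there, was lost with a pseudocount of 0.1, with no filter, under the F test in the manner of Ballgown and under the replicate block (0 members called in each), and leaving out a library gave 0 to 0. The call between AT10 and AT1 was lost with no filter, under that F test and under the replicate block (0 each), and leaving out a library gave 0 to 1. Under the replicate block the adjusted p was 0.351 for Egr1 in AT1 against FCA, 0.175 for Egr1 and 0.339 for Btg2 in AT10 against AT1, and 0.426 for Ccn1 in AT1 against AT01, and it changed no other call. The numbers mark sets of repeats whose shared litter, culture or day is not stated. Between groups, 18 correlations of same-numbered libraries ran from -0.11 to 0.09, with a median of 0.0035. The 36 correlations of differently numbered libraries ran from -0.15 to 0.15, with a median of -0.001. Of the 12 libraries, 4 correlated best with their own number. The cause of the lost calls was not tested.

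The fit over all 12 libraries called 1 other member (Egr1, adjusted p = 0.0427) in AT01 against FCA and put 3 in place of 1 lower at an unadjusted p under 0.05 in TCDCA against FCA, where leaving out a library gave 1 to 3. For AT10 against FCA, other early genes lower at an unadjusted p under 0.05 numbered 0 in the main fit, against 4.34% of all records. They numbered 1 with no filter, 2 in the fit over all 12 libraries, 2 under the F test and 0 to 2 without a library. Over all TCDCA libraries 4 of 31 were lower at that p in the main fit, against 6.15% of all records. These were Csrnp1, Zfp36, Sik1 and Nr4a1, and the count was 2 to 6 without a library. Members below every FCA library numbered 0 to 1 without a library in AT10 and in TCDCA. The median correlation with Fos was 0.62 without the log, 0.36 on deviations from the group means and 0.63 to 0.76 without a library.

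Signs changed where values lay near 0 or rested on 1 library. Under the F test Fosl1 and Fosl2 in AT1 against AT01 were -0.035 and 0.0071. Leaving out a library, AT10 against FCA ran from -0.63 to 0.36 for Fosl1, -0.088 to 0.05 for Fosl2, -0.053 to 0.039 for Jun, -0.27 to 0.062 for Jund and -0.036 to 0.039 for Nr4a1. AT1 against AT01 ran from -0.091 to 0.072 for Egr1, -0.14 to 0.12 for Fosl1, -0.034 to 0.022 for Fosl2, -0.060 to 0.080 for Jun, -0.099 to 0.24 for Jund and -0.074 to 0.0060 for Nr4a1. Fosl1 in TCDCA against FCA ran from -0.89 to 0.094, above 0 without FCA replicate 2.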

Other observations

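Higher in AT10 than in AT1 at an unadjusted p under 0.05 were 10 of 31 early genes outside the members, against 2.72% of all records. In AT10 against AT01 they numbered 9, against 2.14% of all records. The 3 genes below lay higher without overlap in AT10 than at both lower doses, and were chosen after their values were seen. Egr2, Nr4a1, Myc, Btg2, Csrnp1 and Plk2 did so too. Dusp5, which encodes a nuclear ERK phosphatase, measured 4.24 to 4.83 FPKM in AT10 against 2.50 to 3.10 in AT1 and 2.41 to 2.84 in AT01, with FCA spread from 2.50 to 4.63. Nr4a2, a relative of Nr4a1, measured 22.49 to 26.19 FPKM in AT10, 18.84 to 22.40 in FCA, 17.04 to 17.96 in AT1 and 16.38 to 19.70 in AT01. Ptgs2 measured 40.49 to 97.96 FPKM in AT10, 16.63 to 40.76 in FCA, 22.48 to 27.38 in AT1 and 20.30 to 35.10 in AT01. None of the 3 passed an adjusted p of 0.05 by limma in a comparison between doses.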
